A study of Mus musculus with 2 samples.

Results

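The Kruppel-like factors are transcription factors that bind GC-rich and CACCC-like DNA through 3 zinc fingers at the end of the protein. Klf2, Klf3, Klf4, Klf5, Klf6, Klf7, Klf9, Klf10, Klf11 and Klf13 are described here, 10 of 43346 genes in the deposited tables, matched by gene identifier to GENCODE symbols. The 10 were listed by name, and 7 further genes of the family (Klf1, Klf8, Klf12, Klf14, Klf15, Klf16 and Klf17) serve as a comparison. Libraries of total RNA were made from stomachs of mouse embryos of strain B6NCrl at 14.5 days of gestation (E14.5). The single group has 2 biological replicates, each labelled as 1 stomach from 1 pup and collected on different days. Replicate 1 holds 25072242 expected counts (estimated read numbers) and replicate 2 holds 25599910. Whole organs were used, no treatment or mutant allele is named, and there is no second condition. The sex label, pooled male and female, does not go with 1 pup a library.

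In vertebrates the family falls into 3 subgroups. Klf3, with Klf8 and Klf12, makes up subgroup 1, known as repressors that recruit CtBP proteins. Klf2, Klf4, Klf5, Klf6 and Klf7, with Klf1, make up subgroup 2, known mostly as activators that bind acetyltransferases. Klf9, Klf10, Klf11 and Klf13, with Klf14 and Klf16, make up subgroup 3, which bind the corepressor Sin3. In gut epithelium Klf5 is known from dividing progenitors and Klf4 from differentiating cells.

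Both libraries carried the defining genes of stomach, but they stood apart in some respects. All 6 stomach genes on the list (Barx1, Sox2, Gata4, Foxf1, Cym and Tff1) were at 1 TPM (reads per transcript length, scaled to a fixed total) or more in both libraries, with summed levels of 2517 TPM in replicate 1 and 2280 TPM in replicate 2. The 6 pancreas genes summed to 322 TPM in replicate 1 and 5.09 TPM in replicate 2. The Y-linked genes Ddx3y, Eif2s3y, Kdm5d and Uty had 1256 to 2550 counts in replicate 1 and 0 to 2 in replicate 2, while Xist had 13.5 and 32038 counts. By these counts replicate 1 was male and replicate 2 female, so every ratio between the libraries also compares the sexes. Spike-in RNAs took 12.1% of TPM in replicate 1 and 14.2% in replicate 2, which lowers every gene's TPM in replicate 2 relative to replicate 1. Each member's value is therefore given for both libraries.

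The zinc fingers define the family, and the likeness of the stretch that codes for them bears on whether reads could be assigned to the wrong member. The coding stretch of the last of the 3 fingers follows for each member, 5′ to 3′ on the sense strand, from GENCODE M21 transcripts on mm10. Capitals mark the 4 codons for the pair of cysteines and the pair of histidines that hold the zinc ion. Coordinates span any intron inside the stretch. The first line is the subgroup 1 member, the next 5 are subgroup 2 and the last 4 subgroup 3.
Klf3 (chr5:64829084-64829146, plus): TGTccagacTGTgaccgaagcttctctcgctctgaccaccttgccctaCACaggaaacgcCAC
Klf2 (chr8:72320851-72320913, plus): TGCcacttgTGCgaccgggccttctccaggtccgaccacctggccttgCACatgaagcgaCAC
Klf4 (chr4:55528131-55528193, minus): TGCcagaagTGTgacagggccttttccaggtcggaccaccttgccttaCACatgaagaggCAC
Klf5 (chr14:99313258-99313320, plus): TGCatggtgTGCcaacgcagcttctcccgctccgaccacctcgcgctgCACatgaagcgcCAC
Klf6 (chr13:5866746-5867277, plus): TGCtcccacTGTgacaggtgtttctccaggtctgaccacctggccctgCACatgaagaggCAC
Klf7 (chr1:64035719-64042330, minus): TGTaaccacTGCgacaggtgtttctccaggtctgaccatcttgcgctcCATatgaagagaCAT
Klf9 (chr19:23164790-23164852, plus): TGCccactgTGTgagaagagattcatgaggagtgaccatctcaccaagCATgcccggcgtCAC
Klf10 (chr15:38295995-38296057, minus): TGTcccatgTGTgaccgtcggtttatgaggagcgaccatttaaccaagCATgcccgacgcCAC
Klf11 (chr12:24660290-24660352, plus): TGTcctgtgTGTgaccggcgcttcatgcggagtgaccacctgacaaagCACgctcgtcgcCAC
Klf13 (chr7:63891628-63891690, minus): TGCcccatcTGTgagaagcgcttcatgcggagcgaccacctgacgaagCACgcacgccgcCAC

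Of the 63 positions of the last finger, 20 carried the same base in all 10 members. Within subgroup 2 the number was 35 over 5 genes, and within subgroup 3 it was 42 over 4 genes. In 8 members the stretch lay in the last coding exon without an intron. In Klf6 and Klf7 an intron splits it between exons 3 and 4. Subgroup 2 members and Klf3 end 1 to 3 codons after the last finger, whereas the subgroup 3 members carry 19 to 39 codons more.

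Over the whole block of 3 fingers, 243 nt in each member, identity between members was well short of complete. Across the 45 pairs it ranged from 57.2% to 81.1% with a median of 64.6%. The 16 pairs within a subgroup had a median of 69.8%, and the 29 pairs between subgroups a median of 61.3%. Klf6 and Klf7 were the most alike pair at 81.1%, followed by Klf2 and Klf4 at 78.2% and by Klf10 and Klf11 at 76.1%. Klf3 stood nearer to subgroup 2 than to subgroup 3, with 73.7% identity to Klf5.

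**Figure D1:**
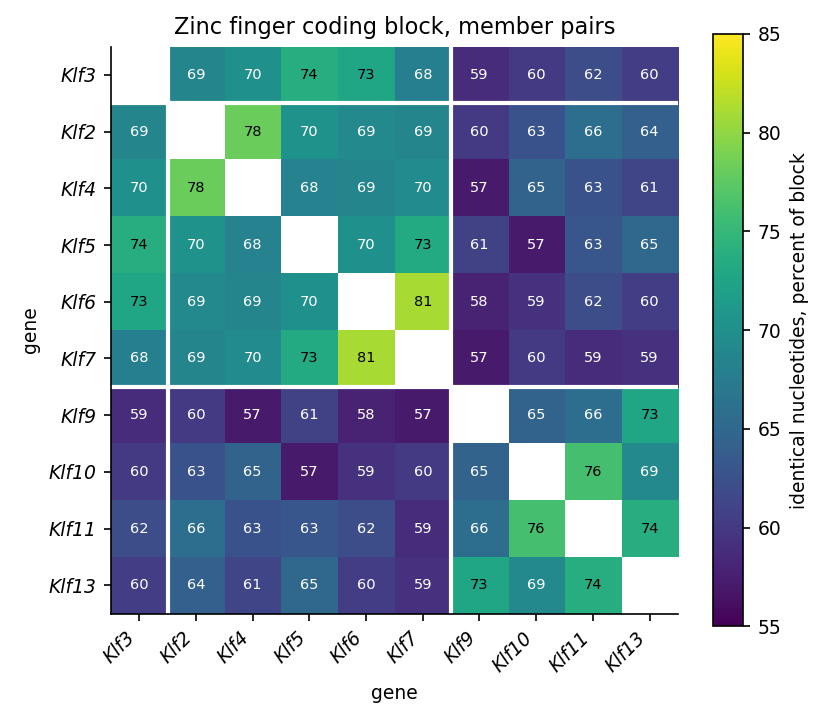
Identity of the coding block of the 3 zinc fingers for each pair of members. Each cell gives the percent of 243 aligned nucleotides that are identical, rounded, and white lines part the subgroups. The brightest cells are Klf6 with Klf7 (81.1%) and Klf2 with Klf4 (78.2%).

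Reads could be told apart between members despite this likeness. The longest run shared by the mRNAs of any 2 members was the 26 nt that Klf6 and Klf7 have in common, gacaggtgtttctccaggtctgacca, which lies in the last finger. That comparison of runs took 1 transcript per gene, for Klf3 the 1562 nt transcript rather than its main one. The deposited effective lengths lie 99 nt below the transcript lengths, so stretches of 100 nt were compared. No stretch of 100 nt in any deposited transcript of a member that could be matched in GENCODE M21 recurred on the same strand in a transcript of another gene. The deposited expected counts of the members were whole numbers, and the standard deviation deposited with them was 0 except for Klf7, at 2.19 reads in replicate 1 and 1.5 in replicate 2. On the opposite strand, 3008 stretches of Klf7 recur in the lincRNA Gm26649, which had 0 counts in both libraries, and 306 stretches of Klf3 recur in Gm20033, which had 18 and 19. Whether counting used strand is not given in the sources used here, so reads from these partners cannot be told apart from those of Klf7 and Klf3.

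All 10 members were detected, meaning 1 TPM or more in both libraries, and they spanned a wide range of levels. The same holds for 61.8% of protein-coding genes and 34.9% of all genes, and the list was drawn up with levels known, so the count is a description. The 10 summed to 308 TPM in replicate 1 and 270 TPM in replicate 2. That was 92.0% and 91.0% of the TPM of the 17 family genes, again a description, since the list was drawn up with levels known. Klf5 alone held 27.2% and 26.5% of the family's TPM. In whole organs, a lower level can mean fewer cells that express a gene or less RNA per cell, and these cannot be told apart.

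**Figure D2:**
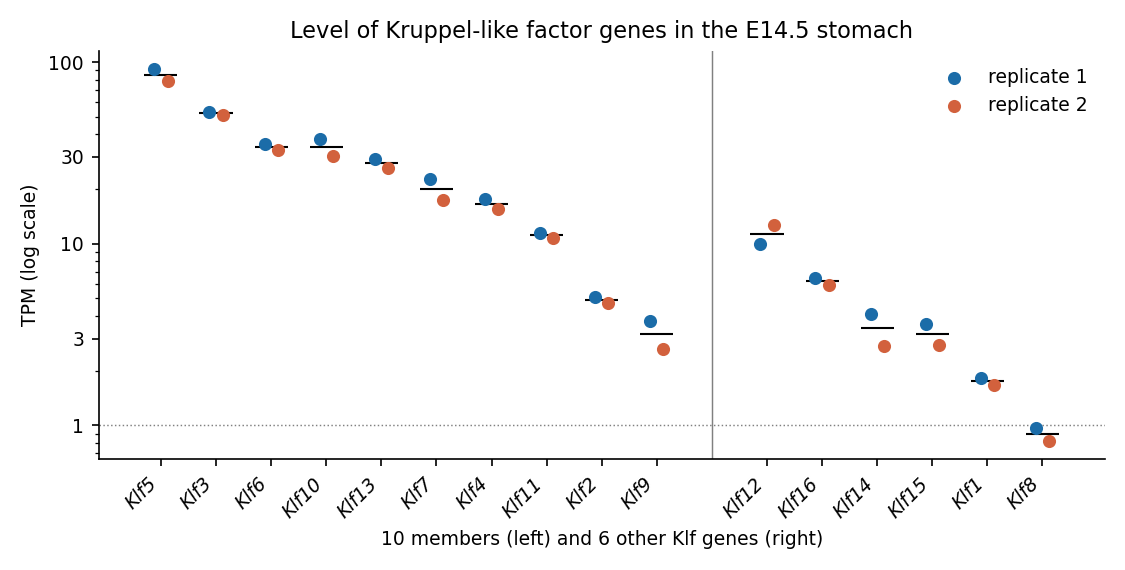
TPM on a log axis for the 10 members (left of the line) and 6 other family genes (right), with a point per library and a bar at the mean of both. Klf17, listed at 0 in replicate 1, is not drawn, and the dotted line marks 1 TPM. Members run from 84.9 TPM (Klf5) to 3.18 TPM (Klf9), and only Klf12 is higher in replicate 2.

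Subgroup 2 supplied the largest part of family TPM, at 52.1% in replicate 1 and 50.8% in replicate 2. Klf5 (ENSMUSG00000005148, chromosome 14, 99298691 to 99315036, plus strand), the factor of proliferating epithelium, had 91.1 TPM in replicate 1 and 78.7 TPM in replicate 2, from 2492 and 2285 counts. Its mean of 84.9 ± 8.78 TPM (SD, n = 2) was the highest in the family in both libraries, and 7.6% of protein-coding genes had a higher mean. Klf6 (ENSMUSG00000000078, chromosome 13, 5861482 to 5870394, plus strand), a broadly expressed factor that responds to injury, had 35.6 and 32.7 TPM from 2470 and 2411 counts. Klf5 and Klf6 thus drew similar read numbers, but the deposited model of Klf5 is 1721 nt long and that of Klf6 4217 nt.

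Klf7 and Klf4 came next within subgroup 2. Klf7 (ENSMUSG00000025959, chromosome 1, 64029447 to 64122282, minus strand), known from developing neurons, had 22.8 and 17.4 TPM. Klf4 (ENSMUSG00000003032, chromosome 4, 55527143 to 55532466, minus strand), known from differentiating epithelium and from pluripotent cells, had 17.7 and 15.5 TPM. Klf7 was above Klf4 within each library, but their ranges over both libraries overlapped. Their order also changes with how the reads of Klf7 are placed on its transcripts, as given below, so it is not settled. Klf5 was above Klf4 in both.

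Klf2 was the lowest member of subgroup 2. Klf2 (ENSMUSG00000055148, chromosome 8, 72319033 to 72321656, plus strand), a factor of endothelium under flow, had 5.06 TPM in replicate 1 and 4.70 TPM in replicate 2, from 149 and 147 counts. About 50.4% of protein-coding genes had a higher mean. The 6 endothelial marker genes, all detected, summed to 195 and 176 TPM, and Klf2 was far below their median of 22.6 and 20.3 TPM. The red cell factor Klf1, no member of the list, was at 1.82 and 1.67 TPM.

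Klf3 was second to Klf5. Klf3 (ENSMUSG00000029178, chromosome 5, 64803388 to 64832901, plus strand), the CtBP-dependent repressor of subgroup 1, had 53.3 TPM in replicate 1 and 51.2 TPM in replicate 2, from 1969 and 2006 counts. These 2 values were the closest of any member, with a coefficient of variation of 2.9%. The others of subgroup 1 were lower, Klf12 at 9.93 and 12.7 TPM and Klf8 at 0.96 and 0.82 TPM. Subgroup 1 as a whole held 19.2% and 21.8% of family TPM.

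Subgroup 3 held 27.7% and 26.5% of family TPM, and its members ranged widely. Klf10 (ENSMUSG00000037465, chromosome 15, 38291463 to 38300706, minus strand), an early response gene of TGF-beta signalling, had 37.6 and 30.4 TPM from 1868 and 1603 counts. Klf13 (ENSMUSG00000052040, chromosome 7, 63886351 to 63938915, minus strand), known from heart and T cells, had 29.2 and 26.1 TPM. Klf11 (ENSMUSG00000020653, chromosome 12, 24651274 to 24662789, plus strand), the close relative of Klf10, had 11.5 and 10.7 TPM. Klf10 was above Klf11 in both libraries, with no overlap.

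Klf9 was the lowest of all members. Klf9 (ENSMUSG00000033863, chromosome 19, 23141226 to 23168134, plus strand), a target of glucocorticoid and thyroid hormone, had 3.73 TPM in replicate 1 and 2.63 TPM in replicate 2, from 199 and 149 counts. The remaining genes of subgroup 3 were low too, Klf16 at 6.43 and 5.95 TPM and Klf14 at 4.11 and 2.72 TPM. Klf15, outside the subgroups, had 3.60 and 2.75 TPM. Klf17 had 0 counts in replicate 1, which allows up to 3, and 4.45 in replicate 2.

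The order of the members by mean TPM was Klf5, Klf3, Klf6, Klf10, Klf13, Klf7, Klf4, Klf11, Klf2 and Klf9. Neighbours in this order had ranges that did not overlap, except Klf6 with Klf10 and Klf7 with Klf4. Klf6 and Klf10 had means of 34.2 and 34.0 TPM, and Klf10 was the higher of them in replicate 1 and the lower in replicate 2. The widest step was between Klf11 and Klf2, 2.27-fold. With 2 libraries, an absence of overlap between neighbours is a description of these libraries.

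The order was not that of the reads, since TPM divides by length. By reads, Klf13 was first with 3034 and 2833 counts, and by TPM it was the fifth, with a main transcript of 6400 nt. Klf5, first by TPM, was the third by reads. Klf9 drew more reads than Klf2 in both libraries but had the lower TPM. Of the 10 members, 3 held the same rank by reads as by TPM.

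**Figure D3:**
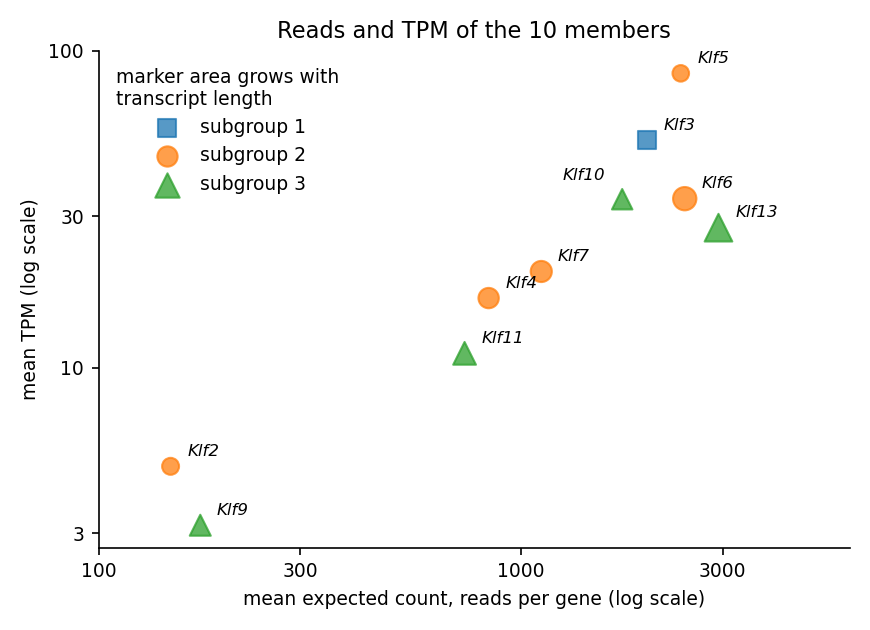
Mean expected count (x, log axis) against mean TPM (y, log axis) of the 10 members over both libraries, with the marker shape giving the subgroup and the area growing with transcript length. Klf5 lies highest at 84.9 TPM, while Klf13, with more reads, lies at 27.7 TPM.

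The gene models behind the lengths were short for some members. The deposited tables use GENCODE M4, and the later release M21 on the same assembly gives a longest coding transcript of 5221 nt for Klf3 against 2314 nt in the tables. For Klf5 the lengths were 3352 and 1721 nt, and for Klf9 4486 and 3263 nt. For the other 7 members they differed by at most 1.03-fold. Among the other family genes, Klf12 had 5890 nt in M21 against 1856 nt as deposited. Reads in the added parts of Klf3, Klf5, Klf9 and Klf12 had no place in the deposited models. How far this moves their TPM was not tested.

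Of the members with more than 1 annotated transcript, all but Klf7 had most of their TPM on 1 of them. Klf2, Klf5, Klf6, Klf9 and Klf10 have a single deposited transcript, so the annotation fixed its share in advance. The top transcript took 99.3% ± 0.035 of Klf4 TPM, 98.2% ± 2.50 of Klf11, 96.9% ± 0.106 of Klf3 and 96.8% ± 0.997 of Klf13 (SD, n = 2), and it was the same in both libraries. From the deposited posterior means these shares were lower, at 97.1% for Klf4, 89.4% for Klf11, 96.2% for Klf3 and 94.9% for Klf13. The second Klf3 transcript, ENSMUST00000166409, codes for a protein of the same length and took 3.03% in replicate 1 and 3.18% in replicate 2.

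Klf7 was the exception, with its TPM divided over 3 transcripts. ENSMUST00000055001, of 1477 nt, took 51.1% of Klf7 TPM in replicate 1 and 53.1% in replicate 2. ENSMUST00000114086, of 7662 nt, took 32.3% and 31.6%, and ENSMUST00000135075, of 553 nt, took 16.6% and 15.4%. By reads the order was different, since the 7662 nt transcript drew 75.8% and 74.9% and the 1477 nt transcript 21.9% and 22.9%. The 2 libraries gave nearly the same split on either scale.

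**Figure D4:**
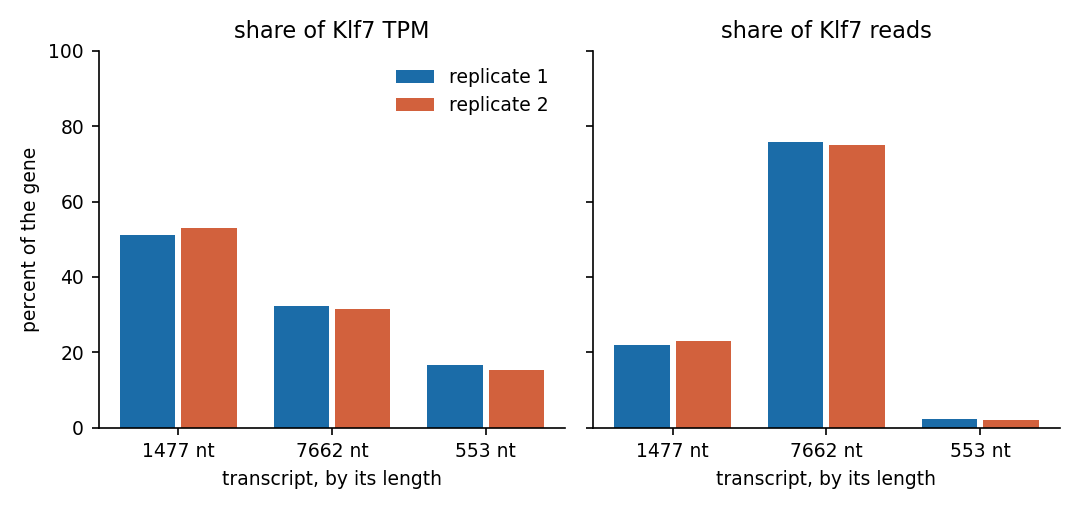
Share of Klf7 assigned to each of its 3 transcripts, as percent of TPM (left) and percent of reads (right), with a bar per library. The 1477 nt transcript leads by TPM (51.1% and 53.1%), and the 7662 nt transcript leads by reads (75.8% and 74.9%).

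The 7662 nt and 1477 nt transcripts of Klf7 differ in their zinc fingers. The forms with the most reads follow, from 45 nt before the point where they part to the stop codon, on the minus strand of chromosome 1 in mm10. Capitals mark what follows the end of exon 3 at position 64042314.
Klf7, 7662 nt transcript: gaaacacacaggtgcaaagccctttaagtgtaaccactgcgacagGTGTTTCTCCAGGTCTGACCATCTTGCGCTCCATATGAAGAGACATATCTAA
Klf7, 1477 nt transcript: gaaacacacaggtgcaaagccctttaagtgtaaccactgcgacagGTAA

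The long form is spliced to exon 4 (chromosome 1, 64029447 to 64035764), which codes for the remaining part of the last finger, and its frame of 301 codons holds 3 fingers. The short form runs on into the intron for 388 nt (64041926 to 64042313) and meets a stop codon at once, so its frame of 285 codons holds 2 complete fingers. The cysteine codons of the last finger are present in the short form and the histidine codons are not. Thus 51.1% and 53.1% of Klf7's TPM, but 21.9% and 22.9% of its reads, were assigned to an annotated transcript without a complete last finger. The fingers of the 553 nt transcript were not examined. Whether reads in that 388 nt stretch came from such a transcript or from RNA not yet spliced was not tested.

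The level of Klf7 depends on this split. With all of its reads placed on the 7662 nt transcript, an alternative added after seeing the data, Klf7 came to 9.73 TPM in replicate 1 and 7.34 TPM in replicate 2. It was then the eighth of 10, below Klf4 and Klf11. Among the members, Klf7's mean TPM was the only one that this alternative moved by more than its spread between libraries.

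The 2 libraries differed little in the members, and replicate 2 tended to be lower. Ratios here are log2 of replicate 2 over replicate 1, from counts scaled with TMM library sizes and with 0.5 added to each. A gene has 1 library a side here, so no p-value is given, and the 95% intervals cover counting error only. None of the 10 members was over 2-fold apart, where 0.298% of the 12761 genes that average at least 100 counts were. No member was over 1.5-fold apart, against 1.25% of those genes. On the scale of spike-in counts, a combination added after seeing the data, 2 members passed 1.5-fold, Klf9 (-0.71) and Klf7 (-0.61), against 4.37% of those genes. Ratios ran from -0.44 for Klf9 to 0.01 for Klf3, with a median of -0.13, where the median of all genes tested was -0.01 and 95% of them lay between -0.39 and 0.36.

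Of the 10 members, 9 had a ratio below 0, against a background of 51.9% of genes. Counting error left 5 of them below 0, where 19.0% of genes had an interval wholly below 0 and 15.9% one wholly above. These were Klf9 (-0.44, interval -0.76 to -0.13), Klf7 (-0.34, -0.46 to -0.22), Klf10 (-0.24, -0.34 to -0.15), Klf5 (-0.15, -0.23 to -0.07) and Klf13 (-0.12, -0.20 to -0.05). Klf3 was level between libraries at 0.01 (-0.09 to 0.10). Among the 4 other family genes that deep, Klf14 was lower in replicate 2 (-0.53, -0.85 to -0.22), while Klf12 was higher (0.41, 0.19 to 0.64). With spike-in counts as the scale, ratios shifted by -0.27 throughout, and 94.9% of genes and all 10 members then lay below 0, so that count says nothing about the members.

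**Figure D5:**
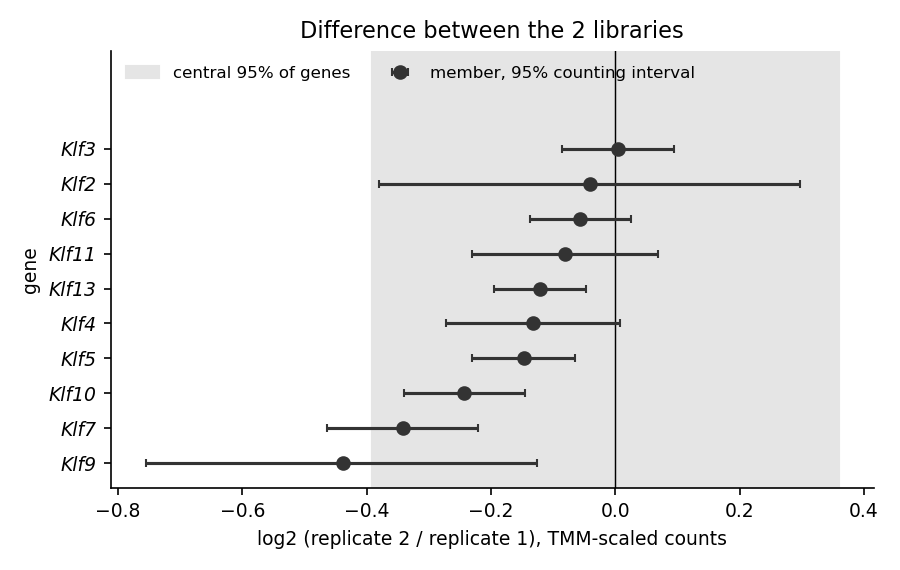
Log2 ratio of replicate 2 over replicate 1 for the 10 members, from TMM-scaled counts, with 95% counting intervals. The grey band holds the central 95% of genes averaging at least 100 counts (-0.39 to 0.36), and Klf9, at -0.44, is the only member whose point lies outside it.

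Marker genes of some cell types, and immediate early genes, were lower in replicate 2 as well. All 5 genes of simple epithelium had ratios below 0, with a median of -0.13, and their summed TPM was 1727 in replicate 1 and 1507 in replicate 2. The 5 stratified epithelium genes with enough counts were all below 0, with a median of -0.16, and the 6 of that list summed to 548 and 436 TPM. The 6 immediate early genes with enough counts were all below 0 with a median of -0.18, and the 8 of that list summed to 183 and 149 TPM. Several members, among them Klf2, Klf4, Klf6 and Klf10, are known as early response genes themselves. Of these, Klf10 had a counting interval wholly below 0. The intervals of Klf2 (-0.38 to 0.297), Klf4 (-0.272 to 0.008) and Klf6 (-0.138 to 0.025) included 0. All 6 endothelial genes were below 0, with a median of -0.09. Smooth muscle (median -0.04), mesenchyme (-0.02) and neuron genes (0.03) differed less. In these lists and in those above, no gene with enough counts was over 2-fold apart. Leukocyte genes (median 0.12, 1 of 4 below 0) and erythroid genes (0.10, 1 of 3 below 0) lay the other way. Pancreas genes had a median of -6.20. The part of any of these in the members' ratios was not tested.

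Partners and regulators of the family were looked up in the same way. Since 61.8% of protein-coding genes were detected, and the lists were chosen with earlier results known, the counts of detected genes are descriptions. The sister Sp factors bind the same kind of DNA, and 6 of 9 were detected, led by Sp3 (53.5 and 49.3 TPM). Sp1 (14.7 and 12.4 TPM) was second by mean, but Sp2 (12.0 and 14.2 TPM, named after its values were seen) was above it in replicate 2. Sp3 was therefore close to Klf3 in level. All 10 cofactors were detected, led by the corepressor Ctbp1 (208 and 196 TPM) and the deacetylase Hdac2 (188 and 179 TPM). The corepressors of subgroup 3, named after their values were seen, were Sin3b (143 and 128 TPM) and Sin3a (33.1 and 34.4 TPM). All 4 ubiquitin ligases that act on KLF proteins were detected, and Wwp1 (13.0 and 12.9 TPM), Smurf1 (16.0 and 9.82 TPM) and Fbxw7 (13.5 and 12.3 TPM, named after its values were seen) had nearly the same mean.

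Genes of the routes that induce single members were also looked up, against the same 61.8% of protein-coding genes detected. Their detection does not show that a route was active. All 8 genes of the flow-sensing route to Klf2 were detected, led by the kinase Mapk7 (36.1 and 34.8 TPM) and the factor Mef2a (31.3 and 30.8 TPM), each above Klf2 itself. All 9 TGF-beta genes were detected, led by Smad2 (38.5 and 40.3 TPM) and the receptor Tgfbr1 (36.4 and 32.9 TPM), levels near that of Klf10. Of 6 hormone receptor genes, 2 were detected, Nr3c1 for glucocorticoid (49.3 and 51.1 TPM) and Thra for thyroid hormone (46.7 and 46.3 TPM), both well above Klf9. No gene of these lists that averages at least 100 counts was over 2-fold apart between libraries, where 0.298% of all such genes were.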

How the data were processed

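The members and gene lists were chosen with earlier results of these data known. The genome was mm10 and the annotation GENCODE M4, per the deposited notes; aligner and counter: not given in the sources used here. RNA over 200 nt was kept from 10 ng, per the labels. The authors deposited, per library, expected counts (estimated read numbers, not normalized), TPM values, which scale to a total that includes 96 spike-ins, and a second TPM column of posterior means. A deposited percent is the part of a gene's TPM on that transcript. The 26248 entries with a number for a name took 15.47 and 25 counts and stayed out. Of 43346 gene identifiers 42462 matched a symbol.

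Ratios used TMM sizes (edgeR 4.0.16, R 4.3.3) over all genes. DESeq2 1.42.0 size factors were an alternative. The ratio step was tested on simulated data. Intervals on ratios are exact (Clopper-Pearson), for counting error only, since PCR copies are not independent molecules. Values over 2 libraries measure only the spread between these samples. Named genes were all family genes, the 2 highest of each list, and top transcripts. Sequences and positions come from GENCODE M21 and, for promoters, RefSeq (GRCm38.p6); fingers were found by the C2H2 spacing pattern. Features planned on RefSeq proteins were computed on GENCODE coding sequences instead, and protein sequences were not used here. Python 3.11.15 was used.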

Additional observations from a re-analysis of the deposited data

How the results depend on the processing

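No member was over 2-fold apart between libraries under any scaling or added count tried, though 2 were over 1.5-fold apart on spike-in counts (added after seeing the data), and all 10 were detected except at 5 TPM, which 8 reached. The order by TPM was the same for 10 members with posterior mean TPM, 7 with all reads on the longest transcript (chosen after seeing the data), 3 by reads, 10 in replicate 2 alone and 8 in replicate 1 alone. The median ratio of the members was -0.127, and -0.395 on spike-in counts. Genes over 2-fold apart numbered 38, and 63 on spike-in counts, 631 with the minimum lowered to 10 counts and 5062 without a filter. Leaving spike-ins and mitochondrial genes out of TPM raised 9 of 10 members by more than their spread, Klf5 to 102 TPM. This step multiplies all remaining genes of a library by the same factor, so that count says nothing about the members. Posterior means lowered the top transcript's share by more than its spread in 4 members, most in Klf11, to 89.4%. Members with a single deposited transcript could not move. In Klf11, posterior means also gave a share to transcripts without reads, which lowers the top share. Klf2 and Klf9 rest on 147 to 199 counts per library.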

Other observations

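The RefSeq promoter table (GRCm38.p6) held 8 of the 10 members, all but Klf5 and Klf10. In the 250 bases before the start site, the GC box GGGCGG, on either strand, was found in 7 of the 8, all except Klf9. It was found in 32.7% of all 32851 promoters and in 57.2% of the 13300 promoters of protein-coding genes at 1 TPM or more in both libraries. The 8 stretches were 59.2% (Klf7) to 78.4% (Klf3) G or C, against a median of 52.4% over all promoters. Neither background was matched for this. CCACCC was found in 4 of the 8 (Klf2, Klf3, Klf7 and Klf13), against 33.9% of promoters of those detected genes. CCAAT was found in 4 (Klf6, Klf9, Klf11 and Klf13), against 35.1%. A match of letters is not a bound site.

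Of 10 genes reported as KLF targets in other tissues, 8 reached 1 TPM in each library, against 61.8% of protein-coding genes. The highest were the smooth muscle gene Tagln (333 and 325 TPM) and the epithelial cadherin Cdh1 (118 and 96.8 TPM). None of these 8 was over 2-fold apart, where 0.298% of genes averaging at least 100 counts were, and their ratios ran from -0.22 to 0.05. Whether any of them responds to a member here was not tested.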
